A study of Mus musculus with 8 samples.

Results

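The mitochondrially encoded mRNAs and the proteins of the mitochondrial ribosome were examined in mouse blastocysts cultured with or without a miR-21-5p mimic. Genes were chosen by symbol, with no expression value involved. Of 22013 genes in the deposited table, 91 matched. They comprised 13 mitochondrially encoded mRNAs (symbols mt-Nd, mt-Co, mt-Atp and mt-Cytb) and 78 nuclear genes of the mitochondrial ribosome, 49 with large-subunit symbols (Mrpl) and 29 with small-subunit symbols (Mrps). Subunits are counted here by symbol, although a few proteins with Mrps symbols, such as Mrps30, are known to sit in the large subunit. The embryos were wild-type ICR, an outbred stock, made by in vitro fertilisation of oocytes from superovulated females of 6 to 8 weeks with sperm of males of 8 to 10 weeks. In 4 libraries the embryos had grown in KSOM that contained 50 nM of miR-21-5p agomir, a modified microRNA mimic, for about 75 h up to the blastocyst stage. The other 4 libraries, the blank controls, came from embryos given vehicle without an oligonucleotide, so no unrelated oligonucleotide served as a control. Each library was a separate pool of 5 whole blastocysts, and the p-values below measure the spread between such pools.

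The mitochondrial genome encodes core subunits of the respiratory chain and of the ATP synthase, and these mRNAs are translated inside the organelle by its own ribosome. All proteins of that ribosome are encoded in the nucleus and imported. The mitochondrial strands are transcribed as long precursors that are cut into single mRNAs, and some of these mRNAs gain the end of their stop codon only with the poly(A) tail. In the mouse embryo the mitochondria are inherited from the oocyte, and the blastocyst relies on oxidative phosphorylation for much of its ATP. In rat heart, miR-21 has been reported inside mitochondria acting on the Cytb mRNA, which makes the mitochondrial transcripts of interest under a miR-21 mimic.

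The sequences below show where the mature microRNA could pair with a mitochondrial mRNA through its seed, bases 2 to 8. The first is the mature mouse miRNA (RefSeq, GRCm38.p6) with the seed in capitals, and the next 2 are stretches of mitochondrial mRNAs (GENCODE M21 transcripts, GRCm38) with the 7-base match ATAAGCT in capitals.
mmu-miR-21a-5p: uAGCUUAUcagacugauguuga
mt-Nd4l: actccaactccATAAGCTccataccaatc
mt-Nd5: tagaacttaaaATAAGCTtcaaaactgac
Among the 13 mitochondrial mRNAs the match was found in these 2, starting at base 160 of mt-Nd4l and base 232 of mt-Nd5, and mt-Cytb held none. A match of letters is not a site of action.

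Neighbouring mitochondrial genes share bases, and several mRNAs end without a full stop codon. The shared bases bear on how reads are counted. The 3′ ends of the transcripts that the results turn on are shown here (GENCODE M21, GRCm38, mitochondrial chromosome, 30 bases each). Capitals mark the stretch shared with the overlapping gene in the first 3 and the final codon, whole or partial, in the last 2.
mt-Nd5: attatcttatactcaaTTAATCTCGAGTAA
mt-Nd6: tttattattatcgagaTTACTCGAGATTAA
mt-Atp8: TATTTGCCTCATTCATTACCCCAACAATAA
mt-Cytb: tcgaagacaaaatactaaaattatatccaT
mt-Co2: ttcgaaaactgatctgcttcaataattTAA
The annotated mt-Nd5 and mt-Nd6 genes lie on opposite strands and share 14 bases. mt-Nd6 was the 1 of 13 on the minus strand, and in human cells its mRNA is known to lack the long poly(A) tail of the others. mt-Atp8 and mt-Atp6 share 43 bases on the same strand, and mt-Nd4l and mt-Nd4 share 7. mt-Cytb, mt-Co3 and mt-Nd4 end on a single T of the stop codon. The strand setting of the counting is not given in the sources used here, so reads of mt-Nd6 and of transcripts opposite it cannot be told apart, and reads from a shared stretch may have been assigned to either gene.

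Total counts per library ranged from 12246102 to 23147449. All 91 genes passed the filter on low counts that 12366 genes passed, and the lowest count of any of them in a library was 284, for Mrps34. In a principal component analysis, control 2 was the farthest library along component 1 (26.1% of the variance), and along component 2 (21.1%) it was agomir 3. Among 11 blastocyst markers, all were measured above the filter, with a summed level of 2156 to 3789 CPM in the controls and 2438 to 7292 in the agomir pools. CPM are counts scaled to a common library total after TMM adjustment. Of 11 cumulus and granulosa markers, 3 passed the filter and Cyp19a1 was at 0 in all 8 libraries. Their summed level was 25.8 to 75.0 CPM in the controls and 6.42 to 25.7 in the agomir pools, and their part in the results was not tested. Sperm markers summed to at most 0.795 CPM and blood markers to at most 1.21 CPM, with Hbb-bs and Hbb-bt at 0 in all 8 libraries.

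Levels per length differed widely among the 13 mitochondrial mRNAs. Per unit of length, mt-Atp6, the proton channel subunit of the ATP synthase, had the highest level, with a mean of 30002 FPKM over 8 libraries (lowest 16366, median 29403, highest 47899.6). FPKM is the deposited count scaled to transcript length and library total. mt-Co2, the cytochrome c oxidase subunit that takes electrons from cytochrome c, followed with 14512 FPKM and lay below mt-Atp6 in 8 of 8 libraries. mt-Nd1 of complex I with 9511 FPKM, mt-Co3 with 9106 FPKM and mt-Cytb with 8515 FPKM formed a group whose order varied between libraries. mt-Nd1 exceeded mt-Co3 in 5 of 8 libraries, and mt-Co3 exceeded mt-Cytb in 4 of 8. mt-Co1, the catalytic subunit of cytochrome c oxidase, had 5717 FPKM, below mt-Cytb in 7 of 8 libraries.

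The lower end of the order was held by complex I subunits and mt-Atp8. mt-Nd4 had 3742 FPKM, mt-Atp8 1896 FPKM and mt-Nd2 1589 FPKM, and the last pair kept that order in 6 of 8 libraries. mt-Nd5 had 794 FPKM, mt-Nd4l 659 FPKM, mt-Nd6 429.96 FPKM and mt-Nd3 221 FPKM. mt-Nd2 lay above mt-Nd5 and mt-Nd6 above mt-Nd3 in 8 of 8 libraries. mt-Nd5 and mt-Nd4l kept their order in 6 of 8. For all 13 mRNAs, the length implied by the deposited count and FPKM equalled the annotated length within 1%, so the FPKM were not corrected for the reduced number of fragments that a short transcript can yield. The level of the shortest transcripts, mt-Atp8 with 204 bases and mt-Nd4l with 297, carries that limit. mt-Atp8 and mt-Atp6 share a transcript, yet their means were 1896 and 30002 FPKM. The order is therefore one of FPKM by annotated gene, and not of the abundance of separate mRNA molecules.

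The first comparison asked whether the mitochondrial mRNAs differed between agomir and control blastocysts. None of the 13 passed, and in edgeR's quasi-likelihood test no gene of the table was called (0 of 12366 tested, 0.0%, at a Benjamini-Hochberg adjusted p under 0.05). An unadjusted p under 0.05 was found for 789 genes (6.38%), of which 326 were higher (2.64%) and 463 lower (3.74%), and they included 1 of the 13 mitochondrial mRNAs and 1 of the 78 ribosomal genes. DESeq2 called 35 of 14319 genes (0.244%), with none of the 91 among them. limma-voom and limma on FPKM called 0 genes each. Of the 13 mitochondrial mRNAs, 4 had a higher and 9 a lower mean with the agomir, with a median log2 fold change of -0.11, beside 50.6% higher and a median of 0.0048 over all genes tested. The groups overlapped for 13 of 13, while they lay apart for 481 of all genes (3.89%), 176 of them higher (1.42%) and 305 lower (2.47%).

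The summed level of the 13 mRNAs was 78350.2, 63124, 76888 and 72369 CPM in controls 1 to 4. It was 50275, 45301, 112253 and 106059 CPM in agomir libraries 1 to 4. The 4 controls thus lay close together, with agomir 1 and 2 below all of them and agomir 3 and 4 above all of them. The mean was 72683 ± 6862 CPM in the controls and 78472 ± 35579 in the agomir pools (SD, n = 4), a log2 ratio of 0.11 that moved between -0.11 and 0.30 when 1 library was left out. In these bulk pools, a difference in the number of cells of a type and a difference in RNA per cell cannot be told apart. Nuclear-encoded subunits of the respiratory chain and ATP synthase showed the same order in part, with 39653 and 37847 CPM in agomir 1 and 2 and 55241 and 58069 CPM in agomir 3 and 4, beside 36450 to 46652 CPM in controls.

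**Figure D1:**
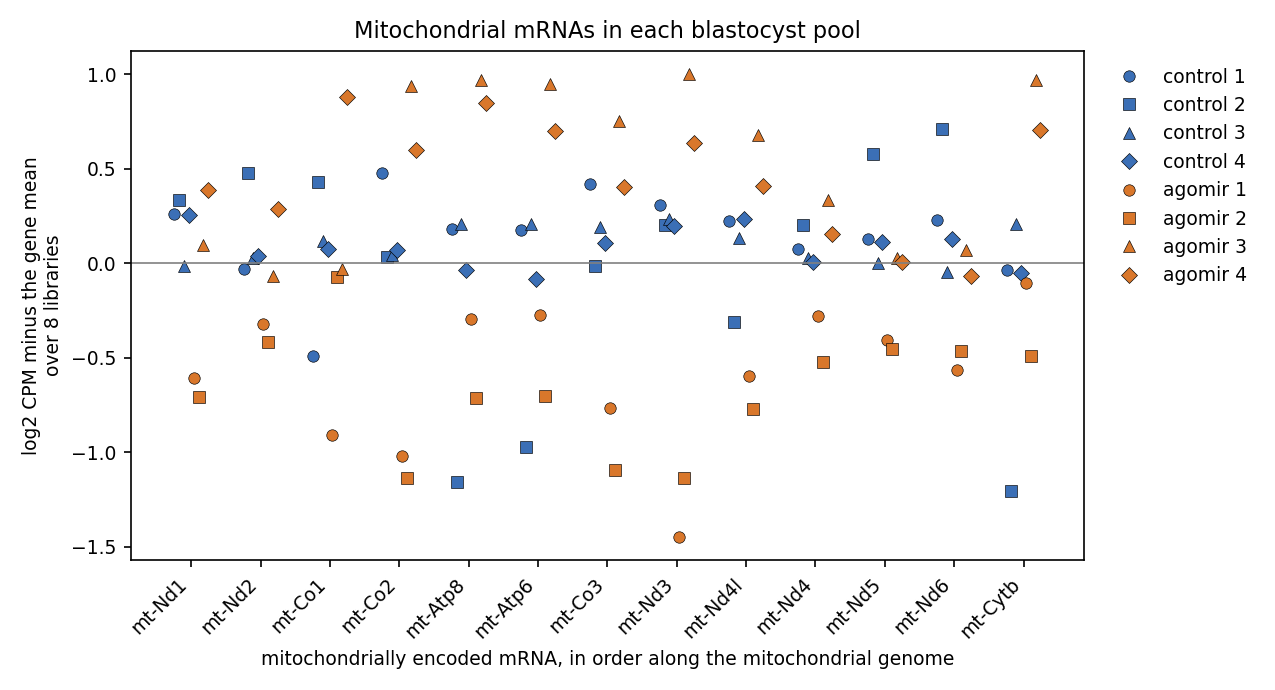
Level of each of the 13 mitochondrially encoded mRNAs in each library, as log2 CPM minus the gene's mean over 8 libraries, in gene order along the mitochondrial genome. Blue symbols are the 4 control pools and orange symbols the 4 agomir pools; agomir 1 and 2 sit low, agomir 3 and 4 mostly high, and control 2 is low for mt-Atp8, mt-Atp6 and mt-Cytb and high for mt-Nd5 and mt-Nd6.

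The spread between pools was larger with the agomir for 12 of the 13 mRNAs. The median SD of log2 CPM was 0.26 in controls and 0.72 with the agomir, beside 0.36 and 0.36 over all genes tested. Agomir 1 and 2 were the lowest pair of libraries for 9 of the 13 (69.2%), beside 585 of all genes (4.73%). Agomir 3 and 4 were the highest pair for 6 of the 13 (46.2%), beside 416 of all genes (3.36%). These pairs were singled out after their values were seen, and the counts describe those libraries. The difference in spread was not tested.

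Complex I, the NADH dehydrogenase, takes 7 of its subunits from the mitochondrial genome. All 7 had a lower mean with the agomir, beside 6104 of all 12366 genes tested. With 1 library left out, the log2 fold change reached 0.19 for mt-Nd3, 0.18 for mt-Nd4l and 0.015 for mt-Nd4. mt-Nd6, a membrane subunit, had 249.6, 349.7, 207 and 234 CPM in controls 1 to 4 and 144, 154, 224 and 204 CPM in agomir 1 to 4. Agomir 1 and 2 lay below every control, agomir 3 and 4 lay within or just below the control range, and control 2 was the highest. Its log2 fold change of -0.52 (SE 0.21) had an unadjusted p of 0.031 and an adjusted p of 0.746 in edgeR's quasi-likelihood test. mt-Nd5, its neighbour on the other strand, had 1536, 2100.2, 1404 and 1519 CPM in the controls and 1061, 1027, 1433 and 1411 in the agomir pools. Here too agomir 1 and 2 were lowest and control 2 highest. Its log2 fold change was -0.41 (SE 0.20, adjusted p = 0.793 in edgeR).

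mt-Nd3 differed most widely between agomir pools. The controls had 85.3, 79.3, 81.2 and 79.1 CPM, and the agomir libraries had 25.3, 31.4, 138 and 107 CPM. The controls were nearly equal, with an SD of log2 CPM of 0.051, while the agomir pools spanned more than the whole control range on both sides with an SD of 1.23. The highest library exceeded the lowest 5.46-fold, and the group log2 fold change was -0.11 (SE 0.44). mt-Nd4l, encoded next to it, had 221, 152, 207 and 223 CPM in the controls and 125, 111, 302 and 251 in the agomir pools, with a log2 fold change of -0.024 (SE 0.30). mt-Nd1, mt-Nd2 and mt-Nd4 had log2 fold changes of -0.35 (SE 0.26), -0.25 (SE 0.21) and -0.12 (SE 0.22). In these 3, agomir 1 and 2 were again the lowest libraries. None had an adjusted p under 0.843 in edgeR.

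mt-Cytb, the only subunit of complex III encoded in the organelle, had the largest group difference upward among the 13. The controls had 8948, 3975, 10597 and 8848 CPM, and the agomir libraries had 8538, 6529, 17969 and 14920.2 CPM. Agomir 3 and 4 lay above every control, agomir 1 and 2 lay among them, and control 2 was the lowest of all 8. The log2 fold change was 0.57 (SE 0.36, adjusted p = 0.827 in edgeR's quasi-likelihood test) and it was 0.34 without control 2, 0.31 without agomir 3 and 0.081 without both, the last chosen after seeing the data.

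Cytochrome c oxidase, complex IV, has its 3 core subunits in the mitochondrial genome. mt-Co2 had 12700.3, 9353, 9395 and 9565 CPM in the controls and 4496, 4154, 17458 and 13835 in the agomir pools. Agomir 1 and 2 lay far below every control and agomir 3 and 4 above every control, with a log2 fold change of -0.038 (SE 0.42). mt-Co3 had 8989, 6671, 7700.0 and 7263 CPM in the controls and 3952, 3159, 11338 and 8893 in the agomir pools, a pattern like that of mt-Co2, with a log2 fold change of -0.16 (SE 0.36). mt-Co1 had 5938, 11243, 9083 and 8819 CPM in the controls and 4458, 7935, 8176 and 15398 in the agomir pools. Its extremes lay elsewhere, with agomir 4 highest and control 1 second lowest. The log2 fold change was 0.036 (SE 0.34), and it was -0.11 with library totals in place of TMM and -0.18 on FPKM.

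The ATP synthase subunits mt-Atp6 and mt-Atp8 share a transcript. mt-Atp6 had 21794, 9826, 22241 and 18176 CPM in the controls and 15913, 11842, 37143 and 31244 in the agomir pools. mt-Atp8 had 408, 161, 414 and 350.3 CPM in the controls and 293, 219, 703 and 647 in the agomir pools. In both, control 2 was lowest and agomir 3 and 4 highest, as for mt-Cytb. The log2 fold changes were 0.42 (SE 0.38) for mt-Atp6 and 0.48 (SE 0.38) for mt-Atp8, and they were -0.074 and -0.015 without control 2 and agomir 3 together, an alternative chosen after seeing the data.

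Across the 8 libraries the mitochondrial mRNAs did not all vary together. Correlations of log2 CPM are given as a description of 8 libraries that share their scaling. The closest pair was mt-Atp8 and mt-Atp6 (Pearson r 0.996), whose annotated genes share bases, and mt-Cytb followed both (r 0.979 and 0.972). mt-Co2 and mt-Co3 formed another close pair (r 0.987) with mt-Nd3 (r 0.975 with mt-Co2), mt-Nd4l (r 0.949) and mt-Nd4 (r 0.932). mt-Nd5 and mt-Nd6, which overlap on opposite strands, had an r of 0.988, and how far shared reads contribute was not tested. mt-Co1 was closest to mt-Nd2 (r 0.728) and had no r above that with another mitochondrial mRNA. Of 78 pairs, 14 had an r over 0.9 and 7 an r below 0.

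Each of the 7 negative pairs set mt-Cytb, mt-Atp8 or mt-Atp6 against mt-Nd2, mt-Nd5 or mt-Nd6. The lowest r was that of mt-Nd6 and mt-Cytb (-0.30), and it was 0.45 without control 2. In control 2, mt-Cytb lay at -1.21 on the log2 scale against its mean over 8 libraries and mt-Nd6 at 0.71, while the other controls averaged 0.041 and 0.10. Without control 2 none of the 78 pairs had a negative r, and the median r was 0.86 in place of 0.63. The opposed variation of these mRNAs thus rested on 1 library.

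**Figure D2:**
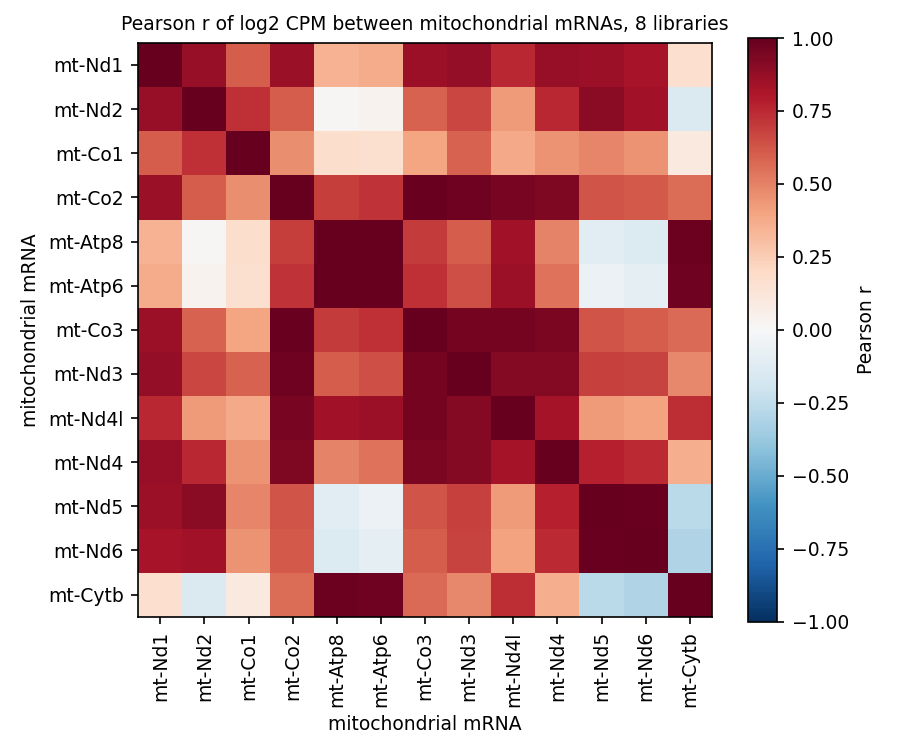
Pearson r of log2 CPM over 8 libraries for each pair of the 13 mitochondrially encoded mRNAs, in order along the mitochondrial genome, from -1 (blue) to 1 (red). The pale and blue cells join mt-Atp8, mt-Atp6 and mt-Cytb with mt-Nd2, mt-Nd5 and mt-Nd6, where r goes down to -0.30.

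The make-up of the mitochondrial mRNA counts does not depend on the scaling between libraries. mt-Cytb took 11.4%, 6.30%, 13.8% and 12.2% of these counts in controls 1 to 4 and 17.0%, 14.4%, 16.0% and 14.1% in agomir 1 to 4. Every agomir pool lay above every control, with the nearest values 13.8% and 14.1%, and the means were 10.9% ± 3.24 and 15.4% ± 1.37 (SD, n = 4). Of the 13 shares this was the 1 for which the groups lay apart. It is a description, without a test, chosen after the 13 shares were seen, and counts not corrected for length enter each share. mt-Nd6 took 0.319%, 0.554%, 0.269% and 0.323% in controls and 0.287%, 0.341%, 0.200% and 0.192% with the agomir, and these groups overlapped. The log2 ratio of mt-Cytb to mt-Nd6 CPM was 5.16, 3.51, 5.68 and 5.24 in controls and 5.89, 5.40, 6.32 and 6.195 with the agomir, so that 1 agomir pool lay below the highest control.

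**Figure D3:**
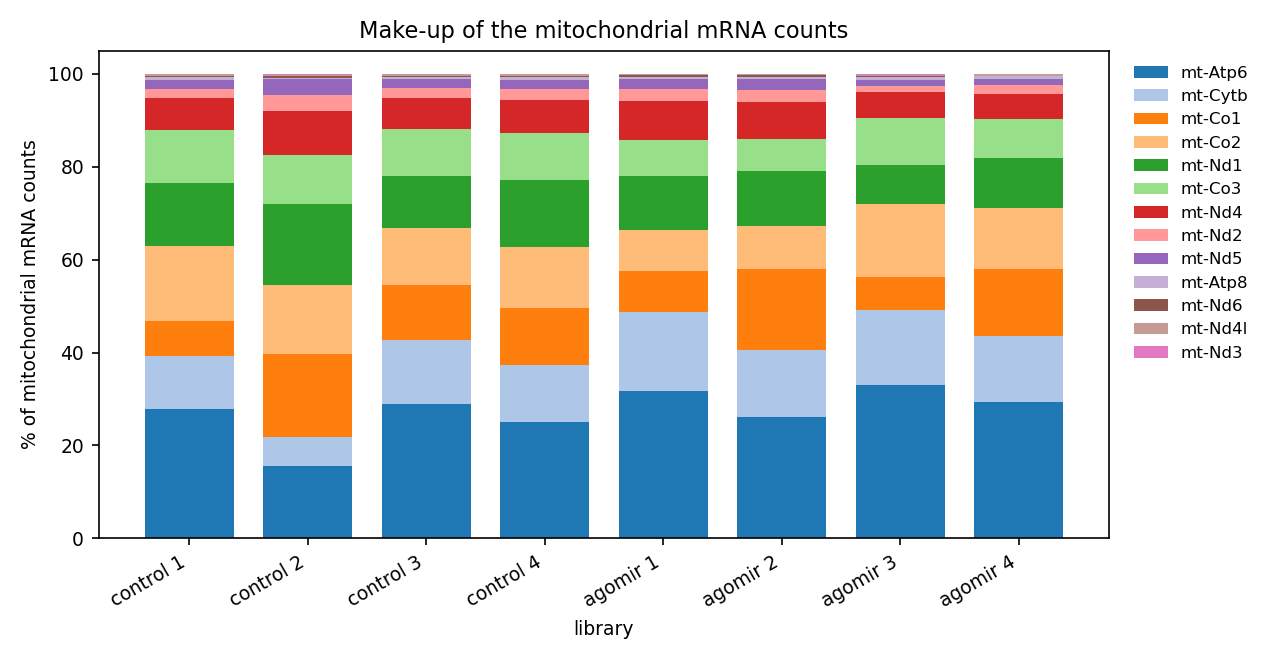
Share of each mRNA in the mitochondrial mRNA counts of each library, in percent, as stacked bars from 0 to 100. mt-Atp6 at the bottom and mt-Cytb above it take 15.6% and 6.30% in control 2, less than in the other 7 libraries, and mt-Cytb is between 14.1% and 17.0% in the 4 agomir libraries.

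Genes whose log2 CPM followed mt-Cytb most closely over the 8 libraries, among 12365 compared, were Ndufc2, a nuclear complex I subunit (r 0.987), then mt-Atp8, mt-Atp6 and Dap3 of the small mitoribosomal subunit (r 0.970). For mt-Nd6 they were mt-Nd5, Dnph1, Hspb6, Acbd5 and Adi1 (r 0.988 down to 0.954). For mt-Co2 they were mt-Co3, Atp5me, mt-Nd3, Uqcrb and Atp5mj (r 0.987 down to 0.970), where Atp5me and Atp5mj are nuclear subunits of the ATP synthase and Uqcrb one of complex III. For mt-Co1 they were Ifitm2, Rab3a, Arhgap31, Tmem256 and Iqcb1 (r 0.938 down to 0.891), with no other mitochondrial mRNA. With 12365 genes compared over only 8 libraries, some high values of r also arise by chance, and none was tested.

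The second comparison concerned the proteins of the mitochondrial ribosome, which differed little between groups. Of the 78 Mrpl and Mrps genes, 61 had a higher mean with the agomir under TMM scaling, 41 under upper-quartile scaling and 32 with library totals alone, so the direction of the family depended on the scaling. The median log2 fold change was 0.082 under TMM, beside 0.0048 over all genes tested, and -0.041 with library totals, beside -0.11 over all genes. It lay above that of all genes under both. The large subunit had 43 of 49 genes higher and the small subunit 18 of 29, with medians of 0.081 and 0.082. The range was -0.47 for Mrps6 to 0.46 for Mrps27. The median SD of log2 CPM within a group was 0.22 in controls and 0.22 with the agomir, so these genes did not share the wide spread of the mitochondrial mRNAs between agomir pools.

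**Figure D4:**
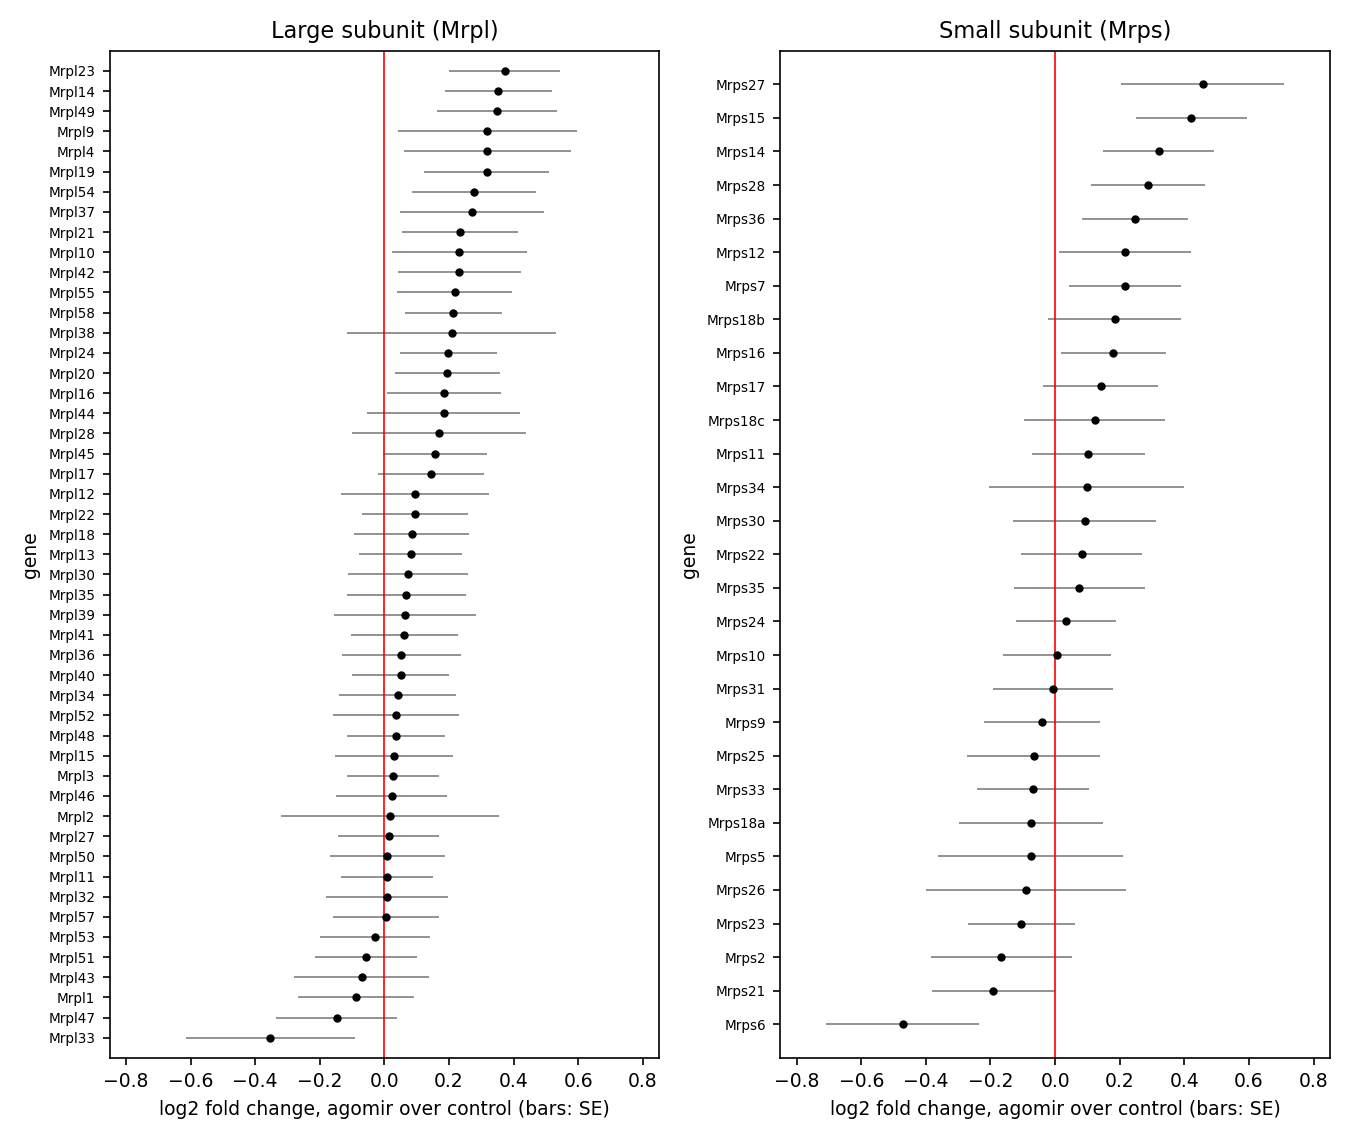
Log2 fold change (agomir over control) of each of the 49 large-subunit (left) and 29 small-subunit (right) genes, sorted by size, with bars for the standard error and a red line at 0. Most points lie within 0.2 of the line, from -0.47 (Mrps6) to 0.46 (Mrps27), and under TMM scaling 61 of 78 lie to its right.

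The groups did not overlap for 3 of the 78 genes, a share close to that of all genes tested (481, 3.89%). The 3 were all higher with the agomir, a direction seen only afterwards, beside 176 of all genes in that direction (1.42%). Mrps15, a small-subunit protein whose bacterial counterpart binds the ribosomal RNA early in assembly, had 52.8, 61.2, 62.3 and 49.2 CPM in the controls and 64.0, 78.7, 90.7 and 68.7 in the agomir pools. The nearest libraries of the groups were 62.3 and 64.0 CPM. The log2 fold change was 0.42 (SE 0.17), with an unadjusted p of 0.030 and an adjusted p of 0.746 in edgeR's quasi-likelihood test. Mrps14, the small-subunit gene with the highest level per length (722 FPKM), had 568, 458, 568 and 542 CPM in the controls and 804, 603, 579.5 and 681 in the agomir pools, again with a narrow gap. Its log2 fold change was 0.32 (SE 0.17, adjusted p = 0.807 in edgeR).

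Mrpl58, the peptidyl-tRNA hydrolase of the large subunit that releases stalled ribosomes, was the third. It had 66.2, 63.0, 65.7 and 67.1 CPM in the controls and 86.6, 68.5, 75.7 and 72.8 in the agomir pools. The controls were nearly equal, and agomir 1 stood highest. The log2 fold change was 0.21 (SE 0.15, adjusted p = 0.830 in edgeR).

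Other large-subunit genes with small p-values were Mrpl23, whose bacterial counterpart lies at the exit of the peptide tunnel, and Mrpl14, Mrpl49, Mrpl19 and Mrpl54. Mrpl23 had 294, 374, 312 and 329.7 CPM in the controls and 402, 453, 339.6 and 499 in the agomir pools, where agomir 3 lay among the controls. Its log2 fold change was 0.37 (SE 0.17, adjusted p = 0.785 in edgeR). Those of the other 4 ranged from 0.28 for Mrpl54 to 0.35 for Mrpl14. None of the 5 was called.

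In the small subunit, Mrps27, a pentatricopeptide repeat protein, had 42.3, 34.6, 32.6 and 33.8 CPM in the controls and 29.6, 58.8, 69.8 and 38.4 in the agomir pools. Its agomir pools lay on both sides of the controls, so the log2 fold change of 0.46 (SE 0.25) rested mainly on agomir 2 and 3. For Mrps28 it was 0.29 (SE 0.18), and Mrps36, also known as a component of the 2-oxoglutarate dehydrogenase complex, had one of 0.25 (SE 0.16). Mrps6 had the largest difference downward, with 31.7, 36.8, 53.5 and 61.5 CPM in the controls and 39.2, 35.9, 24.5 and 32.7 in the agomir pools. Controls 3 and 4 were high and the other libraries overlapped, with a log2 fold change of -0.47 (SE 0.24, adjusted p = 0.797 in edgeR).

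Per unit of length the levels of the ribosomal genes spanned a wide range. Mrpl42 was highest with 1089.6 FPKM (lowest library 824, highest 1380.5), followed in the large subunit by Mrpl36 with 646 and Mrpl23 with 589 FPKM. In the small subunit Mrps14 was followed by Mrps33 with 520.1 and Mrps18c with 509 FPKM. The lowest were Mrps25 with 5.81 and Mrps26 with 6.52 FPKM in the small subunit and Mrpl19 with 10.1 FPKM in the large. The median was 88.5 FPKM for the 78 ribosomal genes, beside 3742 FPKM for the 13 mitochondrial mRNAs and 5.18 FPKM for all genes tested.

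A match to the miR-21-5p seed in the longest annotated 3′ untranslated region (GENCODE M21) was present in 2 of the 78 ribosomal genes (2.56%), among them Mrpl58. The share was 7.86% of 12224 tested genes with such a region. The regions of the ribosomal genes were shorter, with a median of 388.5 bases against 1123.5. The stretch of Mrpl58, whose log2 fold change was 0.21, is shown with the match in capitals.
Mrpl58: ttcttaatcaaATAAGCTttgccctggtc
Mrpl58 had a higher mean with the agomir under TMM scaling.

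Promoters of nuclear genes for mitochondrial proteins are often bound by the transcription factor NRF1 and by the ETS factor GABP. A RefSeq promoter window of 300 bases (250 before to 50 after the start, GRCm38.p6) was found for 69 of the 78 genes. The letters CCGGAAG on either strand, a core of the ETS motif, were in a window of 26 of the 69 genes (37.7%). The share was 9.93% of all 27025 genes with a window. The letters GCATGCGC on either strand, a core of the NRF1 motif, were in a window of 8 of the 69 genes (11.6%). The share was 3.05% of all genes with a window, and 4 of the 69 held both cores. A gene with several windows was counted once, if any of them held the letters. These are letter matches and not binding sites. The comparison took all genes with a window, also those that did not pass the filter on low counts, as all of the 69 did. The difference in shares was not tested. Of the 3 genes with groups that did not overlap, Mrpl58 held the ETS core and Mrps14 and Mrps15 held neither core. The Mrpl58 window, chr11:115403502-115403801 on the plus strand, is shown with both ETS cores in capitals.
Mrpl58: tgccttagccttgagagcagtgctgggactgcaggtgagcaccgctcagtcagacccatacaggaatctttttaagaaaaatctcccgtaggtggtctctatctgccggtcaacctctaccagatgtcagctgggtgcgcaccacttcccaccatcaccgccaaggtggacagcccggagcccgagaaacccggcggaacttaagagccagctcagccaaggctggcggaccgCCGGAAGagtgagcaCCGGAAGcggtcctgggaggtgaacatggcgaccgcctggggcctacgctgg

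Expression of mitochondrial mRNAs and of the ribosome depends on further nuclear genes, and 0 genes of the 5 lists examined were called in edgeR. Of 17 genes for mitochondrial DNA transcription and replication, 8 had a higher and 9 a lower mean with the agomir. Tfam, which packages mitochondrial DNA and starts its transcription, had 36.1, 36.6, 35.5 and 33.5 CPM in the controls and 36.1, 34.7, 47.2 and 33.2 in the agomir pools. All libraries except agomir 3 were alike. Polrmt, the mitochondrial RNA polymerase, had 7.15 ± 2.60 CPM in the controls and 9.18 ± 3.90 in the agomir pools (SD, n = 4). The helicase gene Twnk had the smallest p of this list, with a log2 fold change of -0.33 (SE 0.23).

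Of 20 genes for mitochondrial RNA processing and stability, 11 were higher and 9 lower in mean. Lrpprc, which with Slirp stabilises the polyadenylated mitochondrial mRNAs, had 122, 112, 87.4 and 108 CPM in the controls and 86.6, 108, 137 and 119 in the agomir pools. Slirp had 172, 216, 132 and 171 CPM in the controls and 95.3, 102, 203 and 190.4 in the agomir pools. For Slirp, agomir 1 and 2 were the lowest of the 8 libraries, as for 9 of the 13 mitochondrial mRNAs. For Grsf1, an RNA-binding protein gene, the log2 fold change was -0.26 (SE 0.16), and Pnpt1, a subunit of the mitochondrial RNA degrading complex, had one of -0.31 (SE 0.19).

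Among 15 mitochondrial translation factors, 8 were higher and 7 lower in mean. The elongation factor gene Gfm1 had 43.8, 58.8, 43.4 and 43.7 CPM in the controls and 57.2, 48.5, 101 and 46.1 in the agomir pools, with agomir 3 far above the rest (log2 fold change 0.41, SE 0.25). Control 2 and agomir 3 were the highest pair of libraries for 10 of these 15 genes (66.7%), 8 of 29 Mrps genes (27.6%) and 8 of 49 Mrpl genes (16.3%), beside 1418 of all genes (11.5%). The same 2 libraries were the lowest pair for 1 of the 15 translation factors (6.67%), 4 of 29 Mrps genes (13.8%) and 10 of 49 Mrpl genes (20.4%). The share over all genes was 1039 (8.40%). Among Mrpl genes they were thus the lowest pair more often than the highest. This pair was singled out after the data were seen.

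Of 20 genes for the assembly of the mitochondrial ribosome, 16 were higher and 4 lower in mean under TMM scaling, and 11 were higher with library totals alone. Rcc1l, a mitochondrial assembly factor of the ribosome, had 8.38, 9.33, 7.58 and 5.31 CPM in the controls and 16.5, 9.52, 17.6 and 9.87 in the agomir pools. The groups lay apart by a narrow gap, and agomir 1 and 3 stood high. Its log2 fold change of 0.80 (SE 0.28) carried an unadjusted p of 0.014 and an adjusted p of 0.678 in edgeR's quasi-likelihood test. For the RNA helicase gene Ddx28 it was -0.65 (SE 0.32), and Mettl15, a methyltransferase of the small-subunit ribosomal RNA, had one of 0.48 (SE 0.25). Of 5 mitoribosomal proteins with other symbols, 4 were higher in mean under TMM scaling and 2 with library totals, among the former Dap3 with 128 ± 12.6 CPM in the controls and 136 ± 15.04 in the agomir pools (SD, n = 4).

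The third question was how the mitochondrial mRNAs and the ribosomal genes were related across the 8 libraries. Under TMM scaling the relation was weak, with r 0.27 and Spearman's rho 0.38 between the log2 summed mitochondrial mRNA level and the mean log2 level of the 78 ribosomal genes. Without agomir 2 and agomir 3, the libraries farthest from the median of the mitochondrial level, r was 0.32. It was 0.26 for the large and 0.13 for the small subunit, and the 2 subunits had an r of 0.29 with each other. These are descriptions of 8 libraries that share their scaling, and no p is given for a score over chosen genes. Leaving out 1 library at a time moved r between -0.26, without agomir 4, and 0.47.

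Under TMM scaling, agomir 1 and 2 had the lowest mitochondrial mRNA levels, while the mean log2 level of their 78 ribosomal genes lay above that of every control. Against the mean over 8 libraries, the ribosomal genes averaged -0.033, -0.070, -0.045 and -0.037 on the log2 scale in controls 1 to 4. They averaged 0.039, 0.019, 0.041 and 0.087 in agomir 1 to 4. On this measure and under TMM scaling, all agomir pools were above all controls, by small amounts. With library totals alone, the median log2 fold change of the 78 genes was -0.041, so this separation may not hold under other scalings. For the 29 Mrps genes alone the groups overlapped, with agomir 1 at -0.0073 and control 2 at 0.012. The summed ribosomal level under TMM scaling overlapped too, with 11934, 10776, 11376 and 12219.6 CPM in controls 1 to 4 and 12811, 11994, 11636 and 13738 CPM in agomir 1 to 4. As a share of counts the groups also overlapped, with 1.26%, 1.22%, 1.15% and 1.18% in controls and 1.29%, 1.29%, 1.02% and 1.23% with the agomir (means 1.20% ± 0.0468 and 1.21% ± 0.128, SD, n = 4).

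Expressed as shares of all counts, the relation had the opposite sign. The mitochondrial mRNAs took 8.25%, 7.16%, 7.77% and 6.997% of counts in controls 1 to 4 and 5.08%, 4.87%, 9.86% and 9.47% in agomir 1 to 4. The r between this share and that of the ribosomal genes was -0.70 (rho -0.60), and -0.37 without agomir 2 and agomir 3. Both shares have the same denominator. With the ribosomal genes taken as a share of the nuclear counts r was -0.52, and 0.019 without those 2 libraries. The sign of the relation therefore depended on the scaling. Under TMM scaling r ranged from -0.26 to 0.47 with 1 library left out. The r between shares of all counts kept its sign without agomir 2 and agomir 3 but was weaker.

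**Figure D5:**
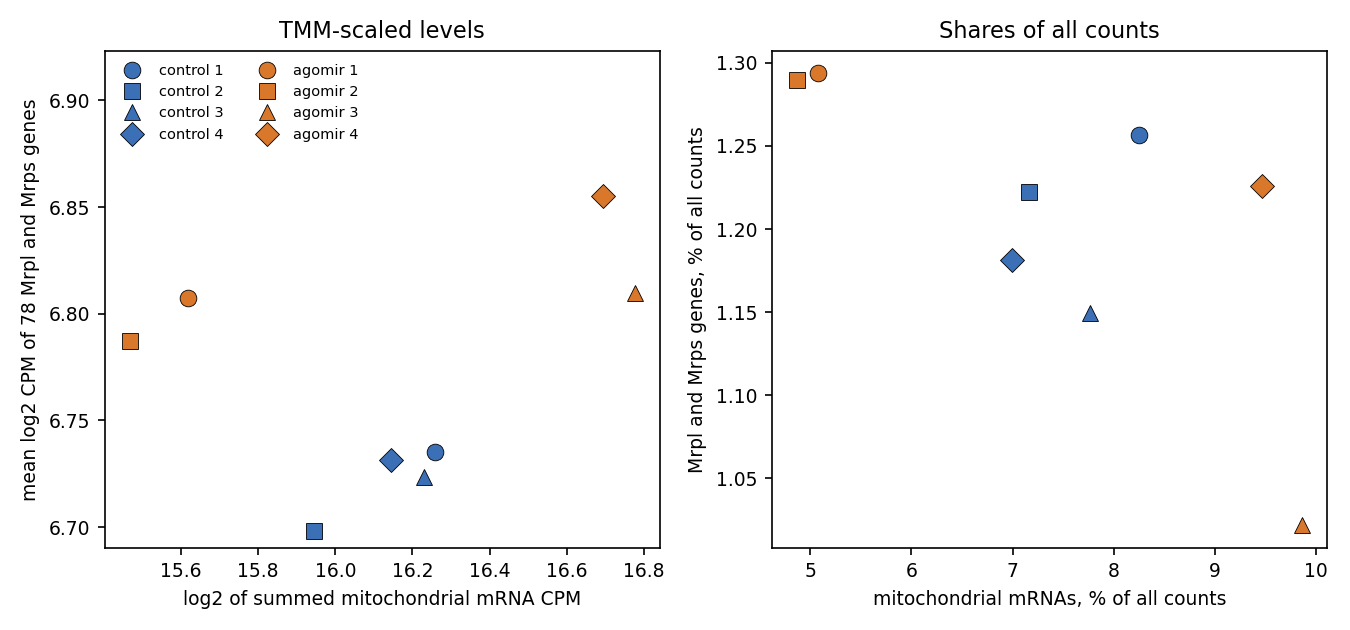
Mitochondrial mRNAs (x axis) against the 78 ribosomal genes (y axis) in the 8 libraries, on the left as log2 of summed CPM and mean log2 CPM under TMM scaling, on the right as percent of all counts. Blue symbols are controls and orange symbols agomir pools; r is 0.27 on the left, where all agomir pools lie above all controls in mean log2 CPM, and -0.70 on the right, where agomir 3 is lowest in ribosomal share.

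For comparison, the mitochondrial mRNAs followed the nuclear subunits of oxidative phosphorylation with an r of 0.92 (rho 0.90), and 0.92 without agomir 2 and agomir 3, and the cytosolic ribosomal proteins with an r of 0.77. Gene by gene, the median r with the summed mitochondrial mRNA was 0.59 for 80 nuclear oxidative phosphorylation genes, 0.57 for 83 cytosolic ribosomal proteins, 0.14 for the 78 mitochondrial ribosomal genes and 0.012 for all genes tested. The difference between these gene groups was not tested.

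Single ribosomal genes ranged from r -0.65 to r 0.94 with the summed mitochondrial mRNA. The most alike was Mrpl27, the counterpart of a bacterial protein near the peptidyl transferase centre (r 0.94). It had 115, 109.97, 114 and 109 CPM in the controls and 95.3, 102, 124 and 130.1 in the agomir pools, so it followed the mitochondrial mRNAs in order but over a narrow range. Mrpl33, Mrpl48, Mrps25 and Mrpl53 came next. Mrpl33 had 279, 271, 249.5 and 284 CPM in the controls and 118, 173, 228 and 329 in the agomir pools, the lowest values again in agomir 1 and 2. The least alike was Mrps30, with r -0.65, followed by Mrpl15, Mrpl38, Mrps10 and Mrpl43. Mrps30 had 80.6, 64.4, 97.3 and 76.4 CPM in the controls and 103, 102, 54.0 and 80.3 in the agomir pools, with agomir 3 lowest and agomir 1 and 2 highest.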

How the data were processed

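Poly(A) RNA of 8 pools was measured. Per the file headers, the deposited table held a count and an FPKM per gene and library. The genome was GRCm39 and the tools named were HISAT2 2.1.0, StringTie 1.3.1, RSEM, fastp 0.18.0, MultiQC, FastQC and DESeq2 1.36.0, per the submitters' processing notes. Not given in the sources used here are their roles, the gene annotation and whether strand was used in counting. The deposited values were taken to be the authors' estimated counts (expected counts), not normalized, since 1212 of 176104 were not whole, and were rounded. In the deposited FPKM the authors divided by library total and gene length. Mitochondrial rRNAs and tRNAs were not analysed here.

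Groups (4 against 4) were compared over the whole table with edgeR 4.0.16 in R 4.3.3 (filterByExpr with minimum count 10 and total 15, TMM, robust quasi-likelihood F test, Benjamini-Hochberg adjustment, threshold 0.05), which was tested on simulated data. The filter removed 0.0862% of counts. Log2 fold changes are agomir over control. An SE is the fold change divided by the square root of F. Log2 CPM used a prior count of 0.5. DESeq2 1.42.0, limma 3.58.1 (voom with quality weights, and log2 FPKM with pseudocounts of 1 and 0.1), other scalings and filters, a replicate block, and leaving out libraries were alternatives. The labels put all libraries in a single batch. Replicate numbers were not used to pair the libraries in the main comparison. The correlation of same-numbered deviations was over 0.1 for none of the 4 numbers, a check that cannot exclude a pairing.

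Named genes were all 13 mitochondrial mRNAs and, per subunit, the 6 ribosomal genes with the smallest p, the 3 highest and 3 lowest in FPKM, any with an unadjusted p under 0.05 or groups that did not overlap, and the 5 most and 5 least like the summed mitochondrial mRNA. From each further list up to 4 genes with the smallest p were eligible, and Tfam, Polrmt, Lrpprc, Slirp and Dap3 by name. The gene groups and lists were chosen with earlier results of these data known. Sequences came from RefSeq and GENCODE M21 on GRCm38, and no coordinates were combined with the deposited table. A gene and a sequence are not reported here.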

Additional observations from a re-analysis of the deposited data

Results flagged for a closer look

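In 3 of 88 groups of 4 libraries examined, the farthest library's gap to its nearest neighbour took more of the group's range than the critical value of Dixon's test at the 95% level allows. Chance alone would mark about 1 group in 20. mt-Nd2 had 2249.04 CPM in control 2, while the other controls had 1580 to 1659 CPM. mt-Co2 had 12700.3 CPM in control 1, while the other controls had 9353 to 9565 CPM. mt-Nd4 took 9.289% of the mitochondrial mRNA counts in control 2 and 6.75% to 7.08% in the other controls.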

How the results depend on the processing

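Over 19 alternatives for 25 genes (the 13 mitochondrial mRNAs and the 12 ribosomal genes with the smallest p, 6 per subunit), 454 of 475 values kept their direction and side of the threshold and 21 had the other sign, all in 8 mitochondrial mRNAs. The 12 ribosomal genes kept their sign under every alternative run. They were picked by small p in these same data, so their signs were likely to hold, while the 13 mitochondrial mRNAs were not picked by p. Of all 78 ribosomal genes, 61 were higher under TMM, 41 under upper-quartile scaling and 32 with library totals. DESeq2 called 35 genes in the table where the other tools called 0, and leaving out 1 library gave 0 to 1 called genes (1 without control 4). The 91 genes had 0 calls under each alternative. The log2 ratio of the summed mitochondrial mRNAs was 0.11 under TMM, -0.045 with library totals and -0.020 on FPKM. With library totals alone, that of the summed Mrpl level was 0.0045 in place of 0.11, and that of Mrps 0.0085 in place of 0.12. On FPKM, with either pseudocount, they were 0.0086 and 0.0050. The relation between both gene groups was r = 0.27 under TMM, -0.72 with library totals, and -0.75 on FPKM with a pseudocount of 1 or 0.1. The cause of these shifts was not tested. Leaving out 1 library moved the log2 ratio from -0.11 to 0.30 for the summed mitochondrial mRNAs, from 0.073 to 0.15 for Mrpl and from 0.084 to 0.16 for Mrps, and r from -0.26, without agomir 4, to 0.47.

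The log2 fold change of mt-Co1 was -0.18 on FPKM with a pseudocount of 0.1, -0.18 with 1, -0.11 with library totals and -0.018 with upper-quartile factors. Without control 2 and agomir 3, chosen after seeing the data, it was -0.015 for mt-Atp8 and -0.074 for mt-Atp6. Leaving out 1 library gave -0.35 to 0.26 for mt-Co1, -0.45 to 0.22 for mt-Co2, -0.52 to 0.078 for mt-Co3, -0.57 to 0.19 for mt-Nd3, -0.30 to 0.18 for mt-Nd4l and -0.26 to 0.015 for mt-Nd4.

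With the replicate number as a block, 0 genes were called. The correlations of same-numbered libraries were -0.058, -0.062, -0.14 and 0.091, and 1 number was closest to its own. With the block mt-Co1 had a log2 fold change of -0.071, and no other of these 25 genes changed its sign.

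The lowest count of a mitochondrial mRNA in a library was 503. With 4 pools a group, the precision is limited by the number of pools.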

Other observations

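Nuclear genes for oxidative phosphorylation and for the cytosolic ribosome were used above only as a comparison. Of 80 nuclear oxidative phosphorylation genes tested, 65 had a higher mean with the agomir (median log2 fold change 0.20) and 3 had an unadjusted p under 0.05 in edgeR, with 0 called. With library totals alone 51 of the 80 were higher (median 0.078). Their median SD of log2 CPM was 0.26 in controls and 0.38 with the agomir, and agomir 3 and 4 were the highest pair of libraries for 32 of them (40.0%). Of 83 cytosolic ribosomal protein genes, 57 had a lower mean (median -0.075), with 0 at an unadjusted p under 0.05 in edgeR and 10 had a higher mean with library totals alone, where 26 did under TMM. Agomir 1 and 2 were the lowest pair of libraries for 33 of the 83 (39.8%). These genes share sequence with processed copies, so their counts are uncertain. In agomir 1 and 2 low mitochondrial mRNA went with low cytosolic ribosomal protein mRNA (summed 63387 and 73234 CPM) but not with low mitochondrial ribosomal mRNA. Agomir 2 hardly differed from control 3 in cytosolic ribosomal protein mRNA. Control 3 had 73511 CPM of it beside 76888 CPM of mitochondrial mRNA. Whether these gene groups differed in how they followed the mitochondrial mRNA was not tested.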
